A study of Mus musculus with 22 samples.

Results

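The genes described are 10 of the 55376 genes counted in the series: the netrins Ntn1 and Ntn4, the netrin receptors Unc5a, Unc5b, Unc5c, Unc5d and Dcc, neogenin (Neo1), and the repulsive guidance molecules Rgma and Rgmb. They were taken by gene symbol, without regard to their values, and each is a single row in every count file. The RNA came from cells sorted from mouse embryos at embryonic day 12.5, with embryos of 1 genotype pooled before sorting. Endothelial cells were sorted on a Kdr::Cherry reporter, and motor neurons on an ISL1::GFP reporter. In the knockout series both cell types were taken from cord together with its meninges, and the groups were Plxnd1-KO endothelial cells (3 libraries), WT endothelial cells (2 usable libraries), Plxnd1-KO motor neurons (3) and WT motor neurons (3). In the regional series all embryos were WT, and the groups were spinal endothelial cells (5 libraries, of which batches 1 to 3 came from the ventral cord and batches 4 and 5 from the whole cord) and meningeal endothelial cells (5). Plxnd1 is a receptor for class 3 semaphorins; neither the deleted stretch of the gene nor the number of embryos per pool is given in the sources used here.

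Netrins are secreted proteins related to laminin that guide growing axons and vessels. In the developing cord the floor plate and the progenitors beside the central canal make Ntn1, which draws commissural axons through Dcc and repels axons and vessel sprouts through receptors of the Unc5 family. Neogenin is the closest relative of Dcc and binds both netrins and the repulsive guidance molecules, which sit on the cell surface and also act as co-receptors for bone morphogenetic proteins.

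Of 22 libraries 21 were used; totals ran from 20680902 to 27035395 counts for the knockout libraries and from 15685784 to 21493255 for the regional ones. The file labelled WT endothelial, batch 2, was identical to that of Plxnd1-KO endothelial, batch 1, in all 55376 genes and was left out; any other of the 231 library pairs had unequal counts for at least 24532 genes. Levels are given as CPM, counts scaled to the TMM-adjusted library size, and were not compared between the series, which had been counted with different strand settings. Plxnd1 lay at 15.4 to 28.9 CPM in Plxnd1-KO and 175 to 213 CPM in WT endothelial cells, and at 0.645 to 1.78 CPM in Plxnd1-KO and 5.14 to 12.1 CPM in WT motor neurons. The sorted populations held RNA of other cells: 8 meningeal fibroblast markers summed to 8740 to 10500 CPM in the endothelial libraries of the knockout series, where 10 endothelial markers summed to 534 to 1250 CPM. In the regional series the same fibroblast markers summed to 819 to 1460 CPM in the spinal group, against 8650 to 11700 CPM in the meningeal group, and the endothelial markers to 1800 to 4080 and 965 to 1990 CPM in those groups. Kdr itself was at 101 to 265 CPM in the endothelial and 1.57 to 7.74 CPM in the motor neuron libraries of the knockout series. In the regional series it was at 424 to 901 CPM in the spinal and 180 to 416 CPM in the meningeal group. In such bulk samples, fewer cells of a type and less RNA per cell cannot be told apart. The labels do not say that libraries came from separate litters, and the p-values therefore reflect how far these pools varied.

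All 10 genes had counts in each library. Per kilobase of exon, Rgma had the highest mean level in 5 of the 6 groups, from 49.4 ± 22.2 CPM per kb in WT endothelial cells (SD, n = 2) to 72.2 ± 8.56 CPM per kb in WT motor neurons (n = 3). Neo1 came first in meningeal endothelial cells, at 32.2 ± 3.89 CPM per kb against 23.7 ± 2.44 for Rgma (SD, n = 5), although the ranges of the 2 genes overlapped. In spinal endothelial cells Rgma (58.4 ± 23.0 CPM per kb), Unc5b (56.1 ± 13.0) and Ntn1 (54.2 ± 20.9) overlapped at the top (SD, n = 5), and Neo1 followed at 31.5 ± 7.19 CPM per kb, its range reaching that of Ntn1. The lowest mean was that of Unc5d in spinal endothelial cells (0.796 ± 0.305 CPM per kb), Unc5a in meningeal endothelial cells (0.358 ± 0.0874), Unc5d in both endothelial groups of the knockout series, and Unc5b in both motor neuron groups. Ntn1 exceeded Ntn4 per kilobase in every library, by 18.7 to 45.3 times in spinal and 1.4 to 2.95 times in meningeal endothelial cells.

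**Figure D1:**
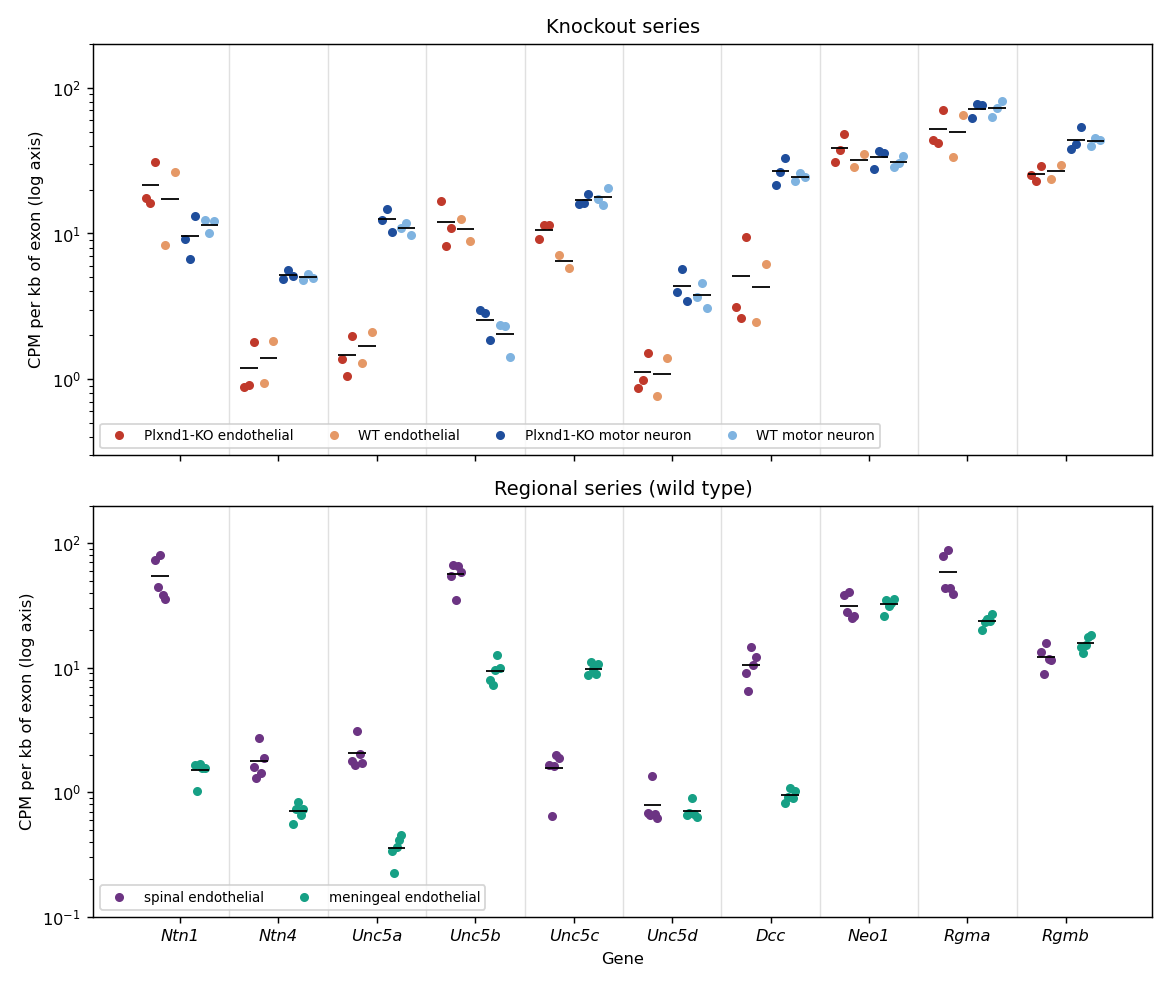
Level of each gene in every library, in CPM per kb of exon on a log axis; points are libraries and black lines group means, with the knockout series above and the regional series below. Neo1, Rgma and Rgmb lie above 8 CPM per kb in all libraries, and Ntn1, Ntn4, Unc5a, Unc5b, Unc5c, Dcc and Rgma separate spinal from meningeal endothelial cells.

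The regional series asked how endothelial cells of the cord tissue differ from those of the meninges around it. Ntn1, Ntn4, Unc5a, Unc5b, Dcc and Rgma were higher in spinal than in meningeal endothelial cells, and Unc5c was lower. Ntn1 was 36.1-fold and Dcc 11.1-fold higher, while Unc5b and Unc5c, which had similar levels per kilobase in meningeal libraries, moved in opposite directions. Of the 10 genes, 6 were higher, 1 was lower and 3 did not pass (edgeR quasi-likelihood test, Benjamini-Hochberg adjusted p under 0.05). Among all 16213 genes tested, 47.8% passed, 24.8% as higher and 23% as lower. The median log2 fold change of the 10 genes was 1.33, against 0.01 for all genes tested. The values of spinal and meningeal libraries did not overlap for the 7 genes that passed, as for 36.5% of all genes tested.

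Ntn1, the main floor plate and progenitor netrin, is encoded on chr11:68209364-68400823 (mm10, minus strand). It measured 442, 271, 491, 231 and 215 CPM in spinal endothelial batches 1 to 5, against 10, 6.29, 10.3, 9.54 and 9.49 CPM in the meningeal libraries of the same batches. The lowest spinal library lay far above the highest meningeal one, and in the cord both whole-cord batches lay below the 3 ventral ones. The log2 fold change was 5.17 ± 0.28 (SE; edgeR adjusted p = 1.15e-07), with a higher spinal value in 5 of 5 batches, and ranked 157th from the highest of the 16213 genes. Ntn4, a netrin of basement membranes, was scarce, at 5.85, 4.7, 9.97, 5.22 and 6.88 CPM in the spinal libraries, against 2.04, 2.69, 3.03, 2.41 and 2.67 CPM in the meningeal ones. The groups did not overlap, and the spinal group's top value came from batch 3. Its log2 fold change was 1.35 ± 0.23 (SE; adjusted p = 0.000384).

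The 4 Unc5 receptors, transmembrane proteins with an intracellular death domain, followed 3 different courses. Unc5b, the family member known for its expression in vessel endothelium, had 322, 393, 204, 386 and 341 CPM in spinal and 46.6, 42.3, 56.1, 74.6 and 58.4 CPM in meningeal libraries. Every spinal value exceeded every meningeal one by far, with spinal batch 3 the lowest of its group. Its log2 fold change was 2.56 ± 0.20 (SE; edgeR adjusted p = 9e-07), which is 5.92-fold. Unc5a, best known from neurons, had 7.07, 6.61, 12.5, 8.1 and 6.88 CPM in spinal and 1.34, 0.898, 1.46, 1.65 and 1.81 CPM in meningeal libraries. Here spinal batch 3 was the highest, and the groups again did not overlap (log2 fold change 2.51 ± 0.25 SE; adjusted p = 5.24e-06).

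Unc5c went the other way. It had 15.9, 6.23, 15.7, 19.3 and 18.4 CPM in spinal endothelial cells, against 84.4, 107, 95.3, 86.3 and 104 CPM in meningeal endothelial cells. Even the highest spinal library was well under the lowest meningeal one. The gene fell by 2.66 ± 0.24 on the log2 scale (SE; edgeR adjusted p = 2.55e-06), 433rd from the lowest of the 16213 genes. Meningeal fibroblast markers moved in the same direction as Unc5c, all 8 being lower in spinal endothelial cells, and their part in the Unc5c difference was not tested. Unc5d had 6.31, 6.06, 12.4, 6.2 and 5.74 CPM in spinal and 6.0, 6.22, 8.34, 6.14 and 5.81 CPM in meningeal libraries, and batch 3 was the highest of both groups. The groups overlapped, and the test did not pass (log2 fold change 0.18 ± 0.23 SE; adjusted p = 0.549).

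Promoter sequences were taken from the RefSeq promoter table (GRCm38.p6) for 6 of the 10 genes. None was taken for the other genes, whether or not that table lists them. Sequences are shown for Ntn4, Unc5a and Unc5b, the 3 of those 6 genes that were higher in spinal endothelial cells. Each is the 250 bases before the RefSeq start, 5′ to 3′ on the gene's strand: chr10:93640799-93641048, plus strand, for Ntn4; chr13:54949161-54949410, plus strand, for Unc5a; and chr10:60831582-60831831, minus strand, for Unc5b. Capitals mark the GC box GGGCGG or its reverse complement CCGCCC, and in Unc5b also TTCCGG, the reverse complement of the extended ETS core CCGGAA; overlapping matches were counted.
Ntn4: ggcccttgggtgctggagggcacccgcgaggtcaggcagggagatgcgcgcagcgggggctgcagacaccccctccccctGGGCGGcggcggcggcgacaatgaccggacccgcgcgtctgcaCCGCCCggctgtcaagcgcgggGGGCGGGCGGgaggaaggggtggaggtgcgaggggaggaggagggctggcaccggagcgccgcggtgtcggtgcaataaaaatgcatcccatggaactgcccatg
Unc5a: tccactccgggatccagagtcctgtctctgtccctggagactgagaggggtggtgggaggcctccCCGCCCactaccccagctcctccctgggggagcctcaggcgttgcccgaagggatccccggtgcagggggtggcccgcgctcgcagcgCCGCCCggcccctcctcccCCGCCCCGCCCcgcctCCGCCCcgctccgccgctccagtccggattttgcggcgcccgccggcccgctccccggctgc
Unc5b: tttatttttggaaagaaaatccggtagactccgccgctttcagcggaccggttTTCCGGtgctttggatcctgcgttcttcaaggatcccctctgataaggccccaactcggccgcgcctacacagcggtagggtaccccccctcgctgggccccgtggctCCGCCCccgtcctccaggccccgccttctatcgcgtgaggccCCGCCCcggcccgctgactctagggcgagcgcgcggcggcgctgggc
Ntn4 held 4 GC boxes, Unc5a 5 and Unc5b 2, a motif found in 32.7% of the 32817 promoter windows of this length. The ETS core, found in 12% of windows, occurred once in Unc5b (n = 1) and 0 times in Ntn4 and Unc5a. The E-box CACGTG, in 6.02% of windows, occurred 0 times in each. Guanine and cytosine made up 73.2% of the Ntn4, 76.8% of the Unc5a and 66.8% of the Unc5b window. A match of letters describes the window and is not a binding site.

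Dcc, the attractive netrin receptor of commissural neurons, had 93.7, 66.6, 152, 108 and 126 CPM in spinal and 8.41, 9.43, 11.3, 9.35 and 10.6 CPM in meningeal libraries. The meningeal values lay close together, and every spinal value was several times higher. Spinal over meningeal, it stood at a log2 fold change of 3.48 ± 0.20 (SE; edgeR adjusted p = 1.46e-07), 435th from the highest. Its relative Neo1 had 282, 207, 297, 185 and 190 CPM in spinal and 192, 257, 231, 245 and 264 CPM in meningeal libraries. The groups overlapped widely, and the spinal value was higher in 2 of 5 batches (log2 fold change -0.03 ± 0.15 SE; adjusted p = 0.877).

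Among the repulsive guidance molecules, Rgma had 297, 163, 328, 162 and 146 CPM in spinal and 75.0, 87.2, 92.2, 89.5 and 100 CPM in meningeal libraries. The groups did not overlap, and spinal batches 1 and 3 stood about level with each other above the rest. On the log2 scale the fold change was 1.30 ± 0.22 (SE; edgeR adjusted p = 0.00042). Rgmb had 93.8, 62.9, 111, 82.4 and 80.5 CPM in spinal and 102, 91.8, 107, 124 and 127 CPM in meningeal libraries. The groups overlapped, and the difference missed the threshold (log2 fold change -0.36 ± 0.15 SE; adjusted p = 0.0597). With the batch as a block it was -0.37 ± 0.13 with an adjusted p of 0.0427 (45.2% of all genes passed in that fit), and the adjusted p ran from 0.0128 to 0.136 over the alternatives; it passed without spinal batch 3 (0.0128) and without meningeal batch 2 (0.035).

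**Figure D2:**
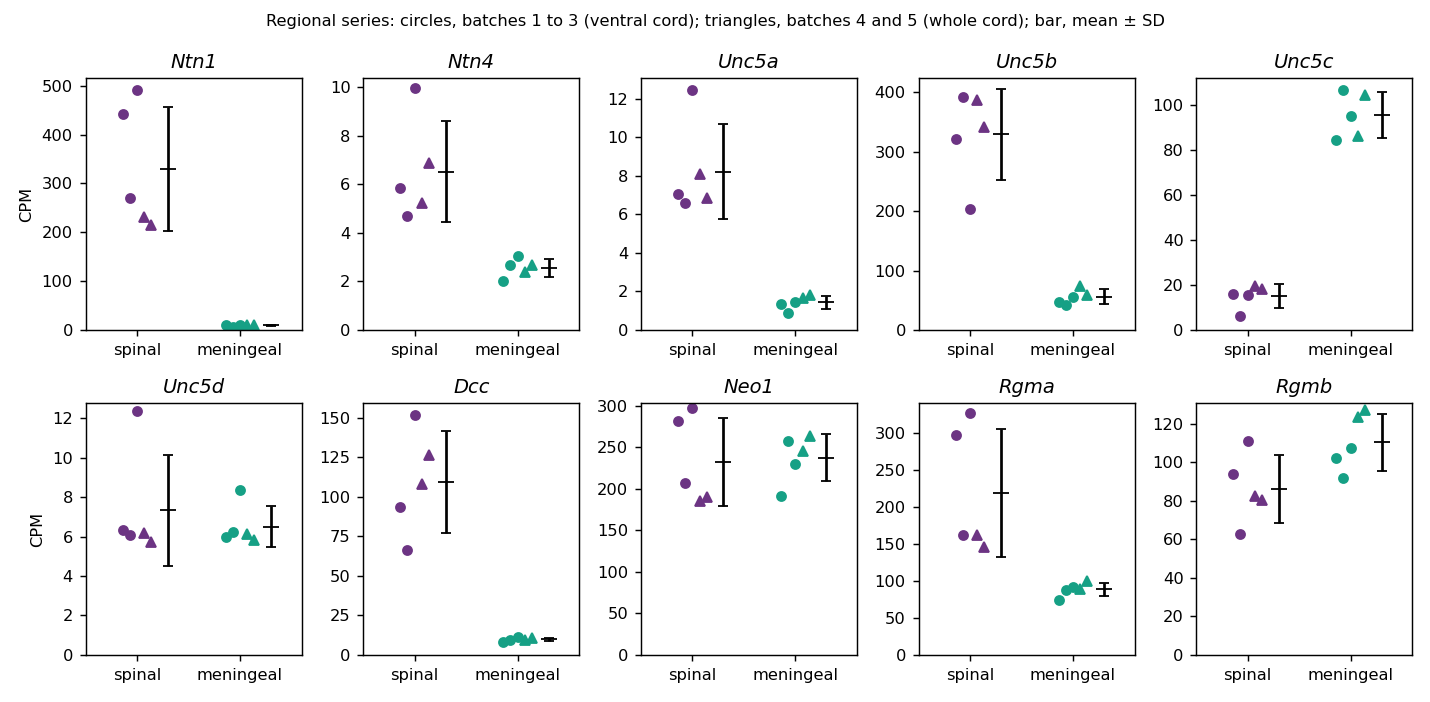
CPM of the 10 genes in each library of the regional series, spinal on the left and meningeal on the right of each panel; circles are batches 1 to 3, whose cord tissue was ventral, triangles batches 4 and 5, and the bar is the mean ± SD (n = 5). Ntn1, Ntn4, Dcc, Unc5a, Unc5b and Rgma lie higher and Unc5c lower in all 5 spinal libraries, while Unc5d, Neo1 and Rgmb overlap.

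RNA of neural cells moved in the same direction as Ntn1 and Dcc. The 7 pan-neuronal markers were all higher in spinal endothelial cells, where they summed to 840 to 1890 CPM, against 161 to 428 CPM in meningeal endothelial cells. Of 7 progenitor and floor plate markers 6 were higher, among them Sox2 (57.8 to 156 CPM in spinal and 2.63 to 4.77 CPM in meningeal libraries) and Shh (3.46 to 7.76 CPM and 0.0 to 0.0641 CPM). Dcc had 72.6 to 84.4 CPM for each 1000 CPM of pan-neuronal markers in spinal and 26.3 to 65.5 in meningeal libraries, and Ntn1 142 to 398 and 24.0 to 58.6. For Unc5a this ratio overlapped between the groups, at 4.56 to 7.87 in spinal and 3.41 to 11.2 in meningeal libraries. For Unc5d it was lower in spinal libraries, at 3.8 to 7.22 against 19.5 to 38.6 in meningeal ones. Ntn1 was set against pan-neuronal markers only, and its ratio to progenitor markers was not taken. Beside the Sox2 ranges above, Ntn1 ran from 215 to 491 CPM in spinal and 6.29 to 10.3 CPM in meningeal libraries. For Unc5b, endothelial markers moved in the same direction (7 of 10 higher). So did 5 of 6 pericyte and smooth muscle markers, while 1 was lower. The 6 summed to 3170 to 8530 CPM in the spinal group, against 1130 to 1530 CPM in the meningeal group. Spinal batch 3 had the highest level of 8 of the 10 genes and also the highest pan-neuronal sum; the part of these markers in the differences was not tested.

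Other genes of the netrin system were read against the 47.8% of all genes that passed between the regions, 24.8% as higher and 23% as lower. Of 4 other netrins, 3 were lower in spinal endothelial cells: Ntng1, a membrane-anchored netrin, fell to 3.61 ± 0.936 CPM against 18.9 ± 2.88 in meningeal endothelial cells (log2 fold change -2.38 ± 0.19), Ntn3 to 11.6 ± 1.98 against 36.5 ± 5.26 (-1.66 ± 0.15), and Ntn5 to 0.164 ± 0.144 against 3.08 ± 0.91 (-4.25 ± 0.53; SD and SE, n = 5 each). Of 12 other receptors and binding partners 11 were tested, 6 being higher and 4 lower. Mcam, a cell adhesion molecule of endothelial cells reported to bind netrin, averaged 656 ± 165 CPM in the spinal group, against 123 ± 34.5 CPM in the meningeal group (2.42 ± 0.22), and Dscam, a netrin receptor of neurons, at 13.6 ± 5.33 and 0.908 ± 0.4 CPM (3.90 ± 0.34). Flrt2, a ligand of Unc5 receptors, was at 57.8 ± 22.8 and 627 ± 76.6 CPM (-3.44 ± 0.24). Of 20 intracellular effectors 11 were higher and 2 lower, with Myo10, a motor protein that carries Dcc, at 291 ± 52.5 and 87.6 ± 12.9 CPM (1.73 ± 0.15). The median log2 fold changes were -2.02, 0.44 and 0.53 for these lists, against 0.01 for all genes tested.

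Because the amount of cord dissected differed, the spinal minus meningeal difference of batches 1 to 3 was set against that of batches 4 and 5. Ntn1 averaged 401 CPM in the 3 ventral cord libraries and 223 CPM in the 2 whole-cord libraries, Rgma 262 and 154 CPM, and Neo1 262 and 188 CPM. The ventral libraries reached from 271 to 491 CPM for Ntn1 and the whole-cord ones from 215 to 231, so that they did not overlap. By edgeR 0 of the 10 genes passed the test of the difference, against 0.547% of 17901 genes tested (98 genes); 3 of the 10 and 3582 of all genes had an unadjusted p under 0.05, and DESeq2 called 0 of the 10 and 1210 of all genes. In edgeR the log2 difference was 0.97 ± 0.37 for Ntn1 (SE; edgeR adjusted p = 0.178), 0.96 ± 0.34 for Rgma (0.161) and 0.68 ± 0.24 for Neo1 (0.157). Without spinal batch 2, Ntn1, Neo1, Rgma and Rgmb passed (adjusted p = 0.0238, 0.0373, 0.00604 and 0.04), in a fit that called 1190 of 17843 genes. Without the filter on low counts Ntn1, Neo1 and Rgma passed, among 1780 of 32736 genes. Over the alternatives the adjusted p of Ntn1 ran from 0.00166 to 0.698. In the edgeR test 1 of 7 progenitor and floor plate markers and 1 of 8 meningeal fibroblast markers also passed, both as higher. The median log2 difference was 0.32 for the progenitor, 1.35 for the fibroblast and -0.84 for the pan-neuronal markers, against 0.06 for all genes. The part of these markers was not tested. Dissection and batch cannot be told apart here.

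The knockout series also set endothelial cells against motor neurons. Unc5b was higher in endothelial cells in both genotypes, and Ntn4, Unc5a, Unc5c, Unc5d, Dcc and Rgmb were lower. In the Plxnd1-KO libraries 2 of the 10 genes were higher and 6 lower, against 35.3% and 33.5% of 19266 genes tested; in the WT libraries 1 was higher and 6 lower, against 33.8% and 31% of genes. Together 68.8% of genes passed in the Plxnd1-KO and 64.8% in the WT comparison, so the share of the 10 genes that passed was near that of all genes. The values of endothelial and motor neuron libraries did not overlap for 8 genes in Plxnd1-KO (72.3% of genes tested) and for 7 in WT (79%). The median log2 fold change of the 10 genes was -0.73 in Plxnd1-KO and -1.08 in WT, against 0.01 and 0.02 for all genes.

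Unc5b had 98.6, 48.2 and 63.6 CPM in Plxnd1-KO endothelial cells, against 17.5, 16.6 and 10.8 CPM in Plxnd1-KO motor neurons of batches 1 to 3. It had 74.3 and 52.0 CPM in WT endothelial cells (batches 1 and 3), against 13.8, 13.5 and 8.34 CPM in WT motor neurons. In both genotypes each endothelial library stood above each motor neuron library. The log2 fold change was 2.23 ± 0.31 in Plxnd1-KO (SE; edgeR adjusted p = 7.94e-05) and 2.41 ± 0.33 in WT (9.02e-05). Unc5a was lower in endothelial cells, at 5.48, 4.17 and 7.9 CPM in Plxnd1-KO endothelial cells against 49.7, 59.0 and 40.9 CPM in Plxnd1-KO motor neurons, and at 5.15 and 8.39 CPM against 43.5, 47.3 and 39.1 CPM in WT. It fell by 3.10 ± 0.26 in Plxnd1-KO (adjusted p = 2e-06) and by 2.68 ± 0.29 in WT (1.94e-05) on the log2 scale.

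Unc5c, which serves repulsion in motor and other projection neurons, had 88.2, 110 and 111 CPM in Plxnd1-KO endothelial cells and 154, 158 and 181 CPM in Plxnd1-KO motor neurons. In WT it had 68.6 and 56.1 CPM in endothelial cells against 166, 151 and 198 CPM in motor neurons. The groups did not overlap in either genotype, and the log2 fold change was -0.67 ± 0.13 in Plxnd1-KO (SE; edgeR adjusted p = 0.00109) and -1.46 ± 0.16 in WT (1.56e-05). Unc5d, which binds Flrt proteins as well as netrin, averaged 10.3 ± 3.1 CPM in Plxnd1-KO endothelial cells and 40.2 ± 10.9 CPM in Plxnd1-KO motor neurons (SD, n = 3 each). Its log2 fold change was -1.96 ± 0.29 in Plxnd1-KO (adjusted p = 0.000139) and -1.80 ± 0.34 in WT (0.000786).

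**Figure D3:**
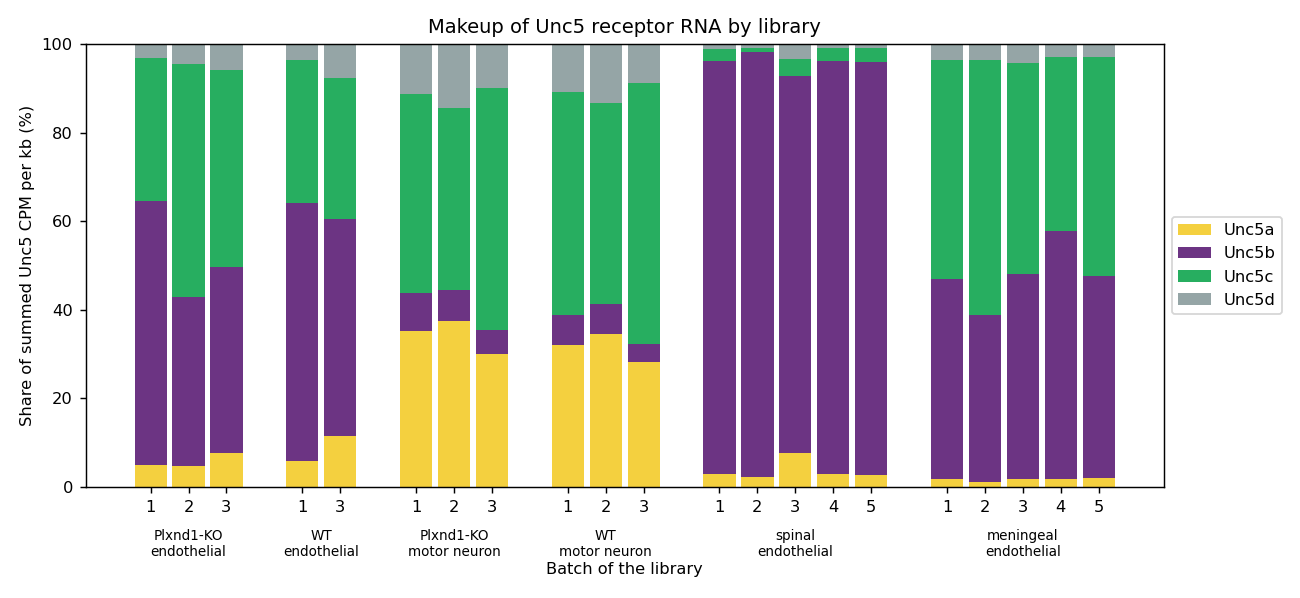
Share of each Unc5 gene in the summed CPM per kb of the 4 genes, in percent, 1 bar per library with its batch number below. Unc5b makes up 85.1 to 95.8% in spinal endothelial cells and 37.7 to 56.0% in meningeal endothelial cells, and Unc5a and Unc5c fill most of the motor neuron bars.

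As shares of the summed Unc5 level per kilobase, Unc5b made up 46.6 ± 11.6% in Plxnd1-KO (SD, n = 3) and 53.5 ± 6.52% in WT endothelial cells (n = 2), against 7.01 ± 1.54% in Plxnd1-KO and 5.91 ± 1.58% in WT motor neurons (n = 3 each). Unc5a and Unc5c together supplied most of the motor neuron total, Unc5a with 34.2 ± 3.83% in Plxnd1-KO and 31.6 ± 3.19% in WT, and Unc5c with 46.9 ± 6.95% and 51.6 ± 6.8%. In the regional series Unc5b held 92.1 ± 4.06% in spinal and 46.2 ± 6.52% in meningeal endothelial cells, and Unc5c 2.7 ± 1.1% and 48.6 ± 6.53% (SD, n = 5 each). The ratio of Unc5b to Unc5c per kilobase was 21.5 to 104 in spinal and 0.656 to 1.43 in meningeal libraries.

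Dcc had 32.3, 27 and 98.1 CPM in Plxnd1-KO endothelial cells against 222, 274 and 338 CPM in Plxnd1-KO motor neurons. In WT it had 25.4 and 63.5 CPM in endothelial cells against 238, 270 and 251 CPM in motor neurons. Endothelial batch 3 was the highest in both genotypes, yet remained below each motor neuron library. The log2 fold change was -2.41 ± 0.48 in Plxnd1-KO (SE; edgeR adjusted p = 0.0011) and -2.51 ± 0.57 in WT (0.00267). Neo1 averaged 287 ± 64.2 CPM in Plxnd1-KO endothelial cells and 247 ± 36.4 CPM in Plxnd1-KO motor neurons (SD, n = 3 each), and its groups overlapped in both genotypes (adjusted p = 0.284 in Plxnd1-KO and 0.884 in WT).

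The netrins themselves separated differently. Ntn1 had 106, 98.5 and 189 CPM in Plxnd1-KO endothelial cells against 55.4, 41.0 and 79.8 CPM in Plxnd1-KO motor neurons, and 50.5 and 160 CPM in WT endothelial cells against 75.0, 60.9 and 73.9 CPM in WT motor neurons. The Plxnd1-KO groups did not overlap, whereas 1 of the 2 WT endothelial libraries lay below each WT motor neuron library. The log2 fold change was 1.16 ± 0.40 in Plxnd1-KO (SE; edgeR adjusted p = 0.0253) and 0.59 ± 0.44 in WT (0.261). The Plxnd1-KO call was lost without endothelial batch 3 (adjusted p = 0.105), motor neuron batch 1 (0.0661) or motor neuron batch 2 (0.0889), and Ntn1 passed in WT without endothelial batch 1 (0.0241). Leaving out a WT endothelial library leaves 1 in that group, which is then assumed to vary like the libraries of the other groups. Ntn4 averaged 4.37 ± 1.91 CPM in Plxnd1-KO endothelial cells and 18.9 ± 1.45 CPM in Plxnd1-KO motor neurons (SD, n = 3 each), with log2 fold changes of -2.13 ± 0.30 in Plxnd1-KO and -1.85 ± 0.34 in WT (adjusted p = 9.72e-05 and 0.000757).

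Rgmb averaged 180 ± 20.9 CPM in Plxnd1-KO endothelial cells and 310 ± 57.6 CPM in Plxnd1-KO motor neurons (SD, n = 3 each). It fell by 0.78 ± 0.15 in Plxnd1-KO (SE; edgeR adjusted p = 0.000692) and by 0.69 ± 0.17 in WT (0.00378) on the log2 scale, the WT call being lost without endothelial batch 1 (0.0538), which again leaves 1 WT endothelial library. Rgma averaged 195 ± 61.3 CPM and 270 ± 31.6 CPM in the same Plxnd1-KO groups. It did not pass in Plxnd1-KO (log2 fold change -0.47 ± 0.25; adjusted p = 0.127) or in WT (-0.55 ± 0.29; 0.12). With the batch as a block, where 70.9% of all genes passed in Plxnd1-KO and 66.8% in WT, it passed in both, at -0.50 ± 0.16 (0.018; 0.018 to 0.335 over the alternatives) and -0.63 ± 0.18 (0.0139; 0.0118 to 0.715). It also passed in Plxnd1-KO without endothelial batch 3 (0.0191); in WT the same omission gave 0.0118, with a single WT endothelial library left. In the knockout series, counted without strand, 6.88% of the exon length of Rgma overlaps an exon of a gene on the other strand, A730056A06Rik; for Unc5c the overlap is 1.22%, for Unc5a 0.851%, and for the other 7 genes 0.

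**Figure D4:**
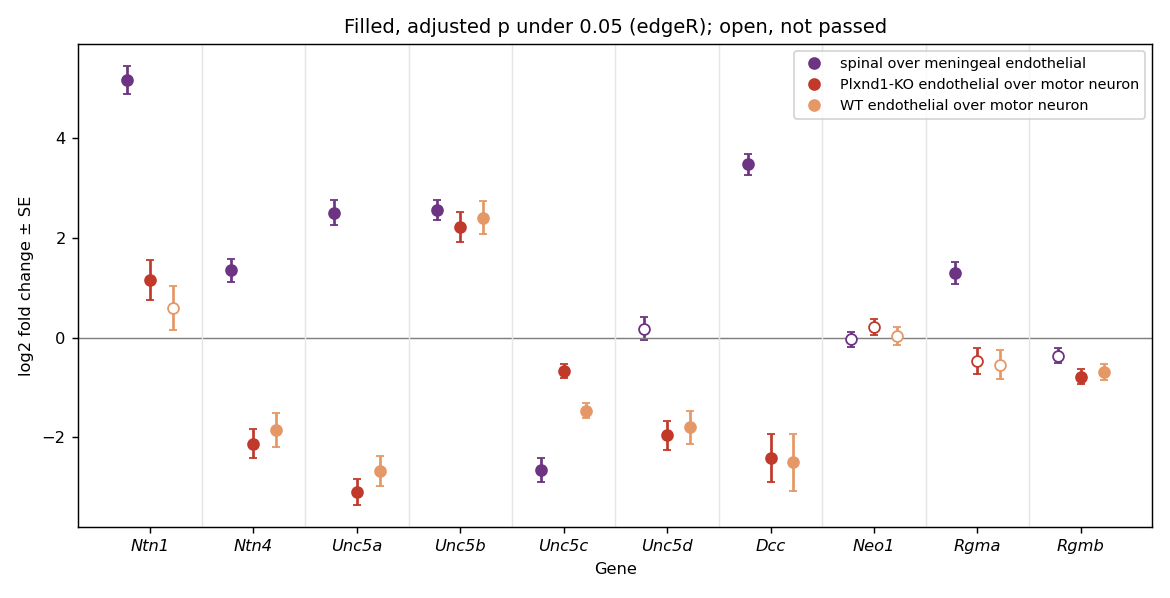
Log2 fold change with its standard error in 3 comparisons of cell populations; filled points passed an adjusted p of 0.05 in edgeR. Unc5b is above and Unc5c below 0 in all 3, while Ntn4, Unc5a and Dcc are above 0 between regions and below 0 between endothelial cells and motor neurons.

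The 8 motor neuron markers summed to 520 to 1590 CPM in Plxnd1-KO and 535 to 1310 CPM in WT motor neurons, with batch 3 the lowest in both. The 3 sensory neuron markers summed to 36.3 to 75.7 CPM and 25.1 to 76.6 CPM there. The part of this spread in the levels of the 10 genes was not tested. The motor neuron libraries held 7610 to 9920 CPM of pan-neuronal markers, against 476 to 1030 CPM in Plxnd1-KO and 434 to 1120 CPM in WT endothelial cells. Dcc had 56.8 to 95.2 CPM for each 1000 CPM of these markers in Plxnd1-KO and 56.7 to 58.5 in WT endothelial cells. In motor neurons it had 27.7 to 42.4 in Plxnd1-KO and 29.7 to 32.9 in WT. The ratio was also higher in endothelial cells of both genotypes for Ntn1, Unc5a and Unc5d. In Plxnd1-KO it was 184 to 216 against 4.13 to 9.98 for Ntn1. For Unc5a it was 7.67 to 11.2 against 5.12 to 6.2, and for Unc5d 13.5 to 19.1 against 3.96 to 5.29. All 8 meningeal fibroblast markers and all 6 pericyte and smooth muscle markers were higher in endothelial cells of both genotypes, with median log2 fold changes of 6.62 and 6.53 in Plxnd1-KO and 6.66 and 6.69 in WT. The counts of other netrin genes below stand beside the 68.8% of all genes that passed in Plxnd1-KO and 64.8% in WT. Of the 4 other netrins, 2 were higher in endothelial cells of both genotypes, Ntn3 (42.2 ± 0.518 CPM in Plxnd1-KO endothelial cells and 25.4 ± 3.16 CPM in Plxnd1-KO motor neurons; SD, n = 3 each) and Ntn5 (3.28 ± 0.63 and 0.215 ± 0.069 CPM). Of the 12 receptors and binding partners, 6 were higher and 4 lower in Plxnd1-KO, and 6 higher and 5 lower in WT. Gpc3, a cell surface proteoglycan, was at 1090 ± 142 and 16.3 ± 1.89 CPM in the Plxnd1-KO groups, and Flrt2 at 554 ± 87.5 and 53.5 ± 1.01 CPM. In the regional series Gpc3 averaged 66.2 ± 53.5 CPM in spinal cells, against 1030 ± 80.2 CPM in meningeal cells (SD, n = 5 each), and it and Flrt2 were lower in the spinal group, as the 8 fibroblast markers were; the part of fibroblast RNA in these differences was not tested. Of the 20 effectors, 7 were higher and 11 lower in Plxnd1-KO, and 6 and 10 in WT; Dock1, an activator of Rac, was at 144 ± 6.36 and 4.99 ± 1.96 CPM, and Pak1, a kinase downstream of Rac, at 48.9 ± 9.12 and 278 ± 13.6 CPM.

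The knockout comparison asked whether these genes change in cells that lack Plxnd1. In endothelial cells edgeR called 0 of the 10 genes and 0 of all 18209 genes tested (0%); 1 of the 10 and 431 of all genes had an unadjusted p under 0.05, and DESeq2 called 1 of the 10 and 30 of all genes. Plxnd1 itself, the deleted gene, had a log2 fold change of -3.20 ± 0.26 (SE) with an edgeR adjusted p of 0.161. So in edgeR without a block even the deleted gene did not pass. In DESeq2 the adjusted p of Plxnd1 was 1.6e-25. With the batch as a block in edgeR its log2 fold change was -3.04 ± 0.11 (5.52e-15). Unc5c was the only one of the 10 genes whose Plxnd1-KO and WT libraries did not overlap, as for 13.8% of 18150 genes. It had 88.2, 110 and 111 CPM in Plxnd1-KO and 68.6 and 56.1 CPM in WT endothelial cells, a log2 fold change of 0.73 ± 0.15 (SE; edgeR adjusted p = 0.999; DESeq2 0.74 ± 0.19, adjusted p = 0.0484). Summed meningeal fibroblast markers lay at 8870 to 10500 CPM in Plxnd1-KO and 8740 to 9000 CPM in WT; their part in the Unc5c values was not tested. The median log2 fold change of the 10 genes was 0.12, against -0.01 for all genes.

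With the batch as a block, which compares batches 1 and 3 and leaves Plxnd1-KO batch 2 without a partner, 3 of the 10 genes rose in Plxnd1-KO endothelial cells, against 0.763% of genes as higher and 0.989% in either direction. Unc5c rose by 0.68 ± 0.11 (SE; edgeR adjusted p = 0.00168; 0.00168 to 1 over the alternatives), with log2 differences of 0.36 in batch 1 and 0.99 in batch 3. Ntn1 rose by 0.64 ± 0.13 (0.0079; 0.0079 to 1), with 106 CPM in Plxnd1-KO and 50.5 CPM in WT of batch 1, and 189 and 160 CPM in batch 3. Dcc rose by 0.50 ± 0.11 (0.0151; 0.0151 to 1), with 32.3 and 25.4 CPM in batch 1 and 98.1 and 63.5 CPM in batch 3. In CPM, the difference between the batches was larger than that between the genotypes for Ntn1 and Dcc, and batch 3 also had the most pan-neuronal marker RNA, 1030 CPM in Plxnd1-KO and 1120 CPM in WT. This fit had 1 residual degree of freedom. In it 4 of 4 tested cartilage markers were higher (456 to 651 CPM summed in Plxnd1-KO and 266 to 428 CPM in WT). Of 10 endothelial markers 2 were lower (534 to 992 and 808 to 1250 CPM). Of 7 progenitor and floor plate markers 1 was higher (510 to 598 CPM summed in Plxnd1-KO and 441 to 582 CPM in WT). Of 5 Schwann markers 1 was higher, and of 5 erythroid markers 1 was lower. The part of these markers in the results was not tested.

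In motor neurons edgeR called 0 of the 10 genes in Plxnd1-KO against WT, with or without the batch as a block; 0 of the 10 had an unadjusted p under 0.05, and DESeq2 also called 0. The groups overlapped for all 10, whereas 4.85% of genes had separate groups. Of all 16695 genes, 2 passed (0.012%), both lower, and 6 with the block (0.0359%); 190 had an unadjusted p under 0.05, and DESeq2 called 4. Unc5b had 17.5, 16.6 and 10.8 CPM in Plxnd1-KO and 13.8, 13.5 and 8.34 CPM in WT motor neurons, higher in 3 of 3 batches, with a log2 fold change of 0.33 ± 0.25 (SE; edgeR adjusted p = 1). Unc5a, Unc5d and Ntn4 were also higher in 3 of 3 batches, by 0.06 to 0.32, 0.11 to 0.32 and 0.02 to 0.09 on the log2 scale, without passing. Ntn1 had 55.4, 41.0 and 79.8 CPM in Plxnd1-KO and 75.0, 60.9 and 73.9 CPM in WT, a log2 fold change of -0.25 ± 0.22 with a higher value in 1 of 3 batches. Plxnd1 had a log2 fold change of -2.97 ± 0.46 (SE; edgeR adjusted p = 0.8), and with the block of -3.0 ± 0.20 (0.000135). Motor neurons of Plxnd1-KO batch 1 held liver RNA (514 CPM of 3 markers); with that library left out, 0 of the 10 genes passed either.

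For the difference of the knockout effect between the cell types, edgeR called 0 of the 10 genes and 0 of 19266 genes (0%); 1 of the 10 and 352 of all genes had an unadjusted p under 0.05, and DESeq2 called 0 of the 10 and 1 of all genes. It was 0.79 ± 0.20 for Unc5c and 0.57 ± 0.60 for Ntn1 on the log2 scale (SE; edgeR adjusted p = 1 for both). Among the other netrins, partners and effectors tested, edgeR made 0 calls in both knockout comparisons and in this test.

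**Figure D5:**
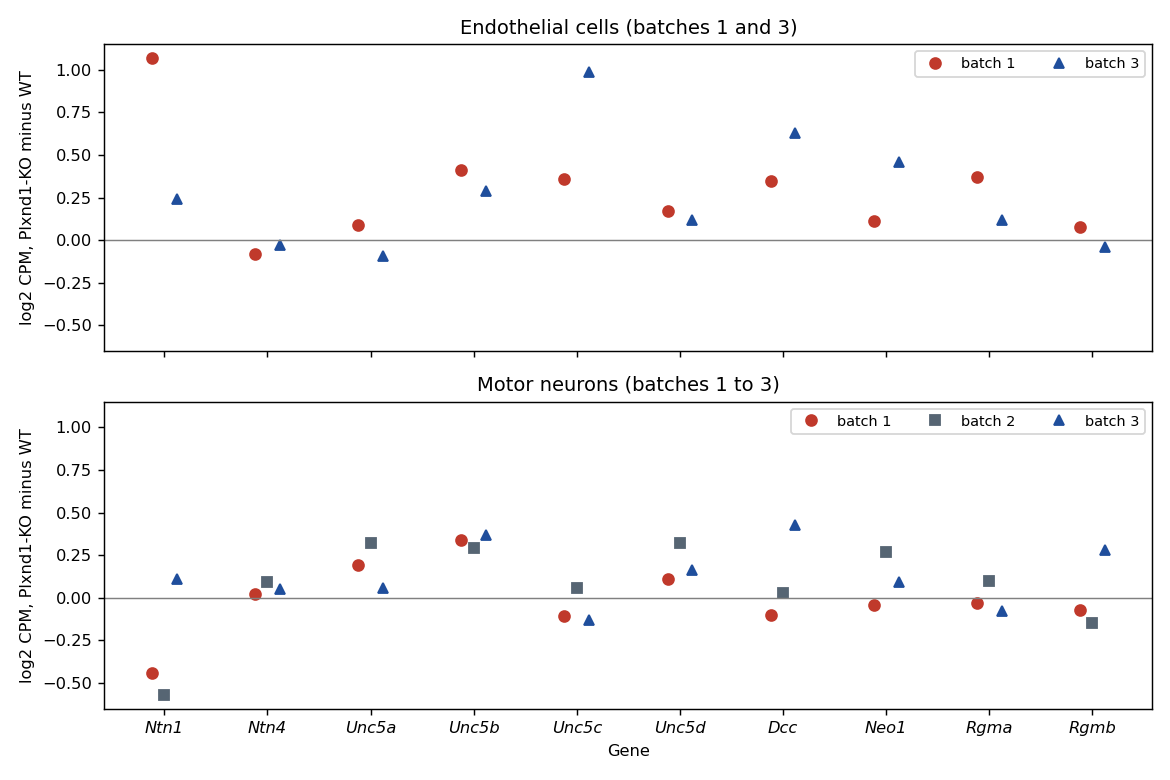
Difference in log2 CPM between Plxnd1-KO and WT libraries of the same batch, for endothelial cells (batches 1 and 3) and motor neurons (batches 1 to 3). In endothelial cells 7 of the 10 genes lie above 0 in both batches: Ntn1 (0.24 and 1.07), Unc5c (0.36 and 0.99), Dcc (0.35 and 0.63), Unc5b (0.29 and 0.41), Neo1 (0.11 and 0.46), Rgma (0.12 and 0.37) and Unc5d (0.12 and 0.17). In motor neurons Unc5b, Unc5a, Unc5d and Ntn4 lie above 0 in all 3 batches.

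Genes whose levels followed the netrin system most closely over the 10 regional libraries were taken as those with the highest Pearson correlation of log2 CPM, as a description in which the contrast between the 2 regions sets most of the value. They were Pdlim3, Sox2 and Sox21 for Ntn1 (0.998 each), of which Sox2 and Sox21 encode transcription factors of neural progenitors, and Nrcam, Map2 and Zswim5 for Dcc (0.996 to 0.998), of which Nrcam and Map2 are neuronal. For Unc5b they were Prdm1, Foxq1 and Coro2b (0.996 to 0.999), of which Foxq1 encodes a transcription factor of brain vessels. For Ntn4 the closest were Trp53bp1, Fam171b and Bach2 (0.982 to 0.984), for Unc5a Ppp2r2b, Pax5 and Cdh22 (0.992 each), and for Rgma Whrn, Gm7694 and Satb1 (0.991 to 0.993). For Unc5c they were Wif1, a secreted Wnt inhibitor, Ripor2 and Cxcl16 (0.988 to 0.995).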

How the data were processed

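The deposited values are raw counts per gene, which the authors made with featureCounts 1.6.4, per the file headers; these name mm10 (GRCm38) and a GENCODE M22 basic gene set. They also show single-end, strandless counting for knockout libraries, reverse-strand counting of read pairs for regional libraries, and no counting of reads with several alignments. Trimmomatic 0.39 and STAR 2.5.3a had been used before, per the submitters' processing notes. Everything else was computed here from these counts with edgeR 4.0.16 and DESeq2 1.42.0 in R 4.3.3, and tables were made with pandas 2.3.3 in Python 3.11.15.

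Each comparison used edgeR's quasi-likelihood test with TMM scaling, a filterByExpr minimum of 10 counts, and Benjamini-Hochberg adjustment over all genes tested, two-sided, with a threshold of 0.05. All 10 genes passed the filter in each comparison. The knockouts were tested within each cell type, cell types and the interaction in 1 fit of 11 libraries, and regions and dissection in fits of 10 libraries. CPM uses TMM-scaled library sizes, and log2 CPM a prior count of 2. SE is the fold change divided by the root of the F statistic. The tests were tried first on counts simulated without a batch effect, unlike these libraries, and no result here rests on that trial.

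For the within-batch differences and the block, libraries were paired by the batch numbers in the labels. The tests compared group means without a batch term, unless the batch is named as a block. Deviations from group means correlated at 0.397 and 0.468 in endothelial pairs, at 0.271 to 0.318 in motor neuron pairs and at -0.273 to 0.303 in regional pairs. With 2 usable WT endothelial libraries the 2 endothelial values are not independent. No such correlation was taken between libraries of unlike batches. Alternatives were the batch as a block, DESeq2, RLE scaling, no filter, a mean of at least 5 CPM, and leaving out each library. The 10 genes are all named. Genes of the other lists were drawn from the 3 of smallest p that passed in each list and comparison. Not all of these are printed, and Gpc3, drawn between endothelial cells and motor neurons, is also given for the regions. The genes of closest pattern are the 3 of highest correlation. The genes and lists were chosen with earlier results of these data known. RefSeq proteins were not used here.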

Additional observations from a re-analysis of the deposited data

Results flagged for a closer look

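Of 20 sets of 5 regional libraries examined (10 genes in 2 groups), 5 had a library set apart from the others by more than Dixon's critical ratio of 0.710; chance alone sets apart about 1 in 20. Unc5d was high in spinal batch 3 (12.4 CPM) and in meningeal batch 3 (8.34 CPM), and Unc5a in spinal batch 3 (12.5 CPM). Spinal batch 3 and meningeal batch 3 also had the highest pan-neuronal sum of their groups, 1890 and 428 CPM; its part in these values was not tested. Unc5c was low in spinal batch 2 (6.23 CPM), and Ntn1 in meningeal batch 2 (6.29 CPM).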

How the results depend on the processing

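The 7 regional calls on the genes described, and those on Unc5b, Unc5a, Unc5c, Unc5d, Ntn4 and Dcc between endothelial cells and motor neurons, kept their direction and passed under each alternative in which the gene was tested; the filter at 5 CPM dropped Ntn4 and Unc5a from the regional and Ntn4 from the endothelial knockout test. The knockout results depended on the block: among endothelial cells the batch as a replicate block called 3 of the 10 genes and 180 of all genes, DESeq2 1 and 30, and the test without a filter 2 of all genes. Among motor neurons all-gene calls were 6 with the block, 4 with DESeq2, 4 without a filter and 0 at 5 CPM, and the interaction had 1 with DESeq2. The dissection test called 1210 genes with DESeq2, 305 with RLE scaling, 1780 without a filter (3 of the 10 genes), 229 at 5 CPM and 4 with the block. Of the 10 genes, the block changed no call beyond these 3 and those on Rgma and Rgmb given above. It also brought Plxnd1 past the threshold in both knockout comparisons, as DESeq2 did in endothelial cells. Among the other netrin genes the block added 1 lower netrin to Plxnd1-KO endothelial cells against motor neurons. It left 1 lower effector between regions instead of 2. Between regions 8 of 10 endothelial markers were higher under it, against 7 without it, and 1 progenitor marker was lower, against 0; under it Rgmb turned to 0.02 in the endothelial knockout. The following settings were chosen after seeing the data: fits of only the groups compared, and the block without Plxnd1-KO motor neuron batch 1, which called 104 genes and put Rgma at 0.00. Where not given, the cause was not tested.

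Leaving out 1 library at a time turned the sign of differences that had not passed. The log2 fold changes then ran, for the endothelial knockout, from -0.28 to 1.38 for Ntn1, -0.62 to 0.35 for Ntn4, -0.51 to 0.18 for Unc5a, -0.17 to 0.45 for Unc5b, -0.30 to 0.54 for Unc5d, -0.58 to 1.04 for Dcc, -0.31 to 0.63 for Rgma and -0.19 to 0.11 for Rgmb. For the motor neuron knockout they ran from 0.00 to 0.10 for Ntn4, -0.15 to 0.05 for Unc5c, -0.02 to 0.37 for Unc5d, -0.03 to 0.28 for Dcc, -0.09 to 0.09 for Rgma and -0.13 to 0.13 for Rgmb. For the interaction they ran from -0.04 to 1.63 for Ntn1, -0.69 to 0.29 for Ntn4, -0.51 to 0.09 for Unc5b, -0.53 to 0.32 for Unc5d, -0.72 to 0.90 for Dcc, 0.00 to 0.33 for Neo1, -0.32 to 0.63 for Rgma and -0.25 to 0.08 for Rgmb. In WT endothelial cells against motor neurons they ran from -0.47 to 1.20 for Ntn1 and -0.12 to 0.18 for Neo1, in spinal against meningeal endothelial cells from -0.12 to 0.27 for Unc5d and -0.16 to 0.02 for Neo1, and for dissection from -0.25 to 0.39 for Ntn4, -0.06 to 0.40 for Unc5b, -0.17 to 0.48 for Unc5d and -0.53 to 0.13 for Dcc. All-gene calls then ran from 0 to 1 in both knockout comparisons and the interaction, and from 0 to 1190 for dissection, where 0 to 4 of the 10 genes passed; without spinal batch 2 there were 1190. Depth limits Ntn4, Unc5a and Unc5d most, the scarcest of the genes in endothelial cells.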
